A study of Mus musculus with 2 samples.

Results

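The 9 genes described here carry the hedgehog signal from the secreted ligand to the nucleus. They are the ligand gene *Shh*, the receptor and co-receptor genes *Ptch1*, *Hhip*, *Gas1* and *Boc*, the transducer gene *Smo* and the transcription factor genes *Gli1*, *Gli2* and *Gli3*. They were taken by gene name from both arrays, which gave 15 of 39429 probes. All 9 genes, of 29924 gene names, had at least 1 probe above background and were tested, and 14 of the 15 probes were tested. Ureters of wildtype NMRI mouse embryos of E11.5, of undetermined sex, had been cultured for 18 h on transwell membranes, either with 10 µM IWP-2 or with its solvent DMSO alone. IWP-2 inhibits PORCN, the enzyme that attaches the lipid which WNT proteins need in order to leave the cell. A treated and a control RNA, each from pooled ureters, were hybridised together on a 2-colour Agilent array of 60-base probes. Replicate 1 carried the treated RNA in AlexaFluor647, and in replicate 2 the dyes were swapped. Changes are given as the log2 of treated over control intensity, so that negative values stand for lower levels after treatment, and n = 2 arrays throughout.

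In the developing ureter SHH is made by the epithelium and is received by the surrounding mesenchyme. Without ligand the receptor PTCH1 keeps the membrane protein SMO inactive, and GLI2 and GLI3 are processed or held back. Binding of ligand releases SMO, GLI proteins are activated, and *Gli1*, *Ptch1* and *Hhip* are transcribed, so that the RNA of these 3 genes is commonly read as the output of the pathway. PTCH1 and HHIP both bind ligand and limit its spread, while GAS1 and BOC are co-receptors that promote the response. Forkhead genes such as *Foxf1* are known targets in mesenchyme next to epithelia that make hedgehog ligand.

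The 2 arrays shared a slide and a scan. Of their spots 68.6 to 70.7% were well above background in a channel and 0 were saturated, and the log2 ratios of the 2 arrays correlated with Pearson's r = 0.465 and Spearman's rho = 0.250 over 20119 genes, which are not independent replicates. Of 9 known WNT targets read as a check of the treatment, 5 fell and 0 rose, against 1.15% and 0.611% of all genes. Among the 5 targets *Lef1* fell by 0.89, *Nkd1* by 1.31 and *Sp5* by 1.12. *Axin2* was at -1.38 and -0.64 with an adjusted p of 0.0502 in limma, and *Znrf3* at -0.25, *Notum* at -0.10 and *Rnf43* at 0.00 did not pass either. The other *Axin2* probe gave -0.60 and -1.13. With probes tested in place of genes, both *Axin2* probes passed (limma, adjusted p = 0.0312 and adjusted p = 0.0274). All 11 epithelial and all 10 mesenchymal markers of the ureter were well above background. As the arrays measured whole explants, fewer cells of a type and less RNA per cell cannot be told apart. The study describes 2 pools each of untreated and IWP-2-treated ureters at E11.5. The labels name no separate litters or cultures for these pools. The p-values therefore measure only the spread between these arrays, which may be technical in part.

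Of the 9 genes, 3 were lower after treatment at a false discovery rate of 0.05, namely *Hhip*, *Gli1* and *Ptch1*, and 0 were higher. Over all genes tested, 232 were lower, which is 1.15%, and 123 were higher, which is 0.611%, or 1.76% in both directions. *Shh* was lower on both arrays to an unequal extent and missed the threshold, and *Smo*, *Gli2*, *Gli3*, *Gas1* and *Boc* lay within 0.33 of 0 in the mean. On both arrays 7 of the 9 genes were below 0, against 27.5% of all genes, and *Gas1* and *Boc* were above 0, against 28.5% of all genes. With median centring in place of loess 6 members were below 0 on both arrays and 0 were above, as *Smo* was at 0.35 on replicate 1 and *Gas1* and *Boc* at -0.11 and -0.06 on replicate 2. At an unadjusted limma p under 0.05, 5 members were lower (*Shh*, *Ptch1*, *Hhip*, *Gli1* and *Gli2*) and *Gas1* was higher, where all genes gave 4.74% lower and 8.67% higher.

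**Figure D1:**
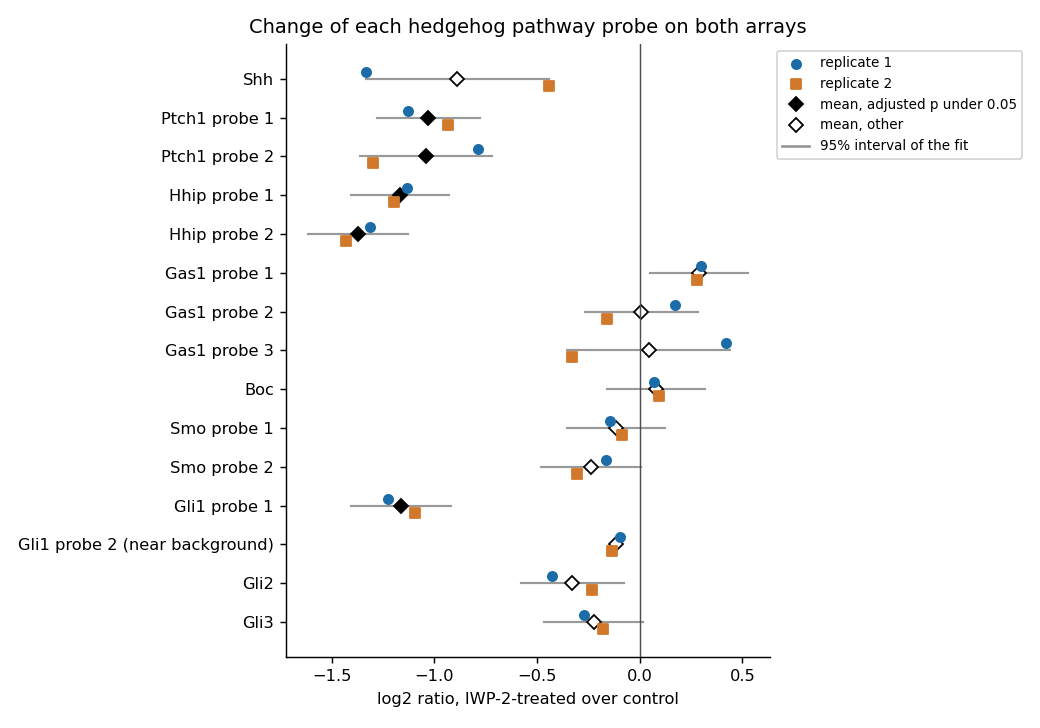
Log2 ratio of IWP-2-treated over control for each of the 15 probes on replicate 1 (circles) and replicate 2 (squares), with the mean (diamonds, filled where the adjusted limma p was under 0.05) and the 95% interval of the fit over 2 arrays (grey lines; none for the Gli1 probe near background). The 2 Ptch1 probes, the 2 Hhip probes and the bright Gli1 probe lie near -1, Shh has its 2 arrays at -1.33 and -0.44, and the other probes lie around 0.

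*Shh* was read by a single probe (mouse build mm9, chr5:28783983-28784042, minus strand). On replicate 1 the treated pool read 1480 and the control pool 3726 in normalized intensity, and on replicate 2 they read 3387 and 4606. Both treated pools lay below both control pools, but replicate 1 differed far more than replicate 2. The log2 ratios were -1.33 and -0.44, with a mean of -0.89 ± 0.63 (SD, n = 2), a 95% interval of -1.37 to -0.41 and an adjusted limma p of 0.0994. The repeated spots of the probe agreed within each array, with an SD of 0.092 over 3 spots on replicate 1 and 0.034 over 4 spots on replicate 2. The 2 arrays thus differed by more than the spots within either array. Since the treated RNA carried the other dye on replicate 2, a difference between the pools and a dye effect cannot be told apart for this gene.

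The other ligand genes did not pass the test either. *Ihh*, the Indian hedgehog gene, was at -0.53 on replicate 1 and 0.11 on replicate 2, and *Dhh*, the desert hedgehog gene, was at 0.28 and 0.41. The mean of *Dhh* was 0.35, with a 95% interval of 0.11 to 0.59 and an adjusted limma p of 0.187. A difference between the arrays like that of *Shh* was also seen in *Foxa2*, a forkhead factor of endoderm and floor plate, which was singled out after its values were seen. Its brightest probe gave -1.54 and -0.22, and its other probe gave -0.93 and -0.16. Both *Foxa2* probes were thus lower on both arrays, with the larger shift on replicate 1 as for *Shh*, and neither passed the test in the fit over probes (limma, adjusted p = 0.182 and adjusted p = 0.215). The brighter probe read 220.3 and 643 for the treated and control pool of replicate 1 and 734 and 855 for those of replicate 2.

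Markers of the epithelium that makes SHH were read beside the ligand. Of 11 tested, 0 passed the test, 5 were higher and 1, *Wnt7b*, was lower on both arrays, and their median was -0.01 on replicate 1 and 0.28 on replicate 2. Their summed level changed by 0.02 and 0.26 on the log2 scale. A pair of smaller lists held markers of tissues that also make SHH. The summed level of the 4 hindgut and cloacal endoderm markers tested changed by -0.77 and -0.09. Of that list, *Cdx2* and *Hnf4a* were not well above background in the control pools. The summed level of the 4 notochord and floor plate markers tested changed by -0.44 and 0.03, with *Noto* not well above background in any pool. *Foxa2* stands in both lists and, at a mean of -0.88, was the lowest of each. The list medians were 0.04 for hindgut and cloacal endoderm and 0.14 for notochord and floor plate. In each list 2 of the tested markers were higher on both arrays, while 2 and 1 were lower. A single marker passed the test, in the notochord and floor plate list, and it was higher. The part of such tissue in the *Shh* values was not tested.

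**Figure D2:**
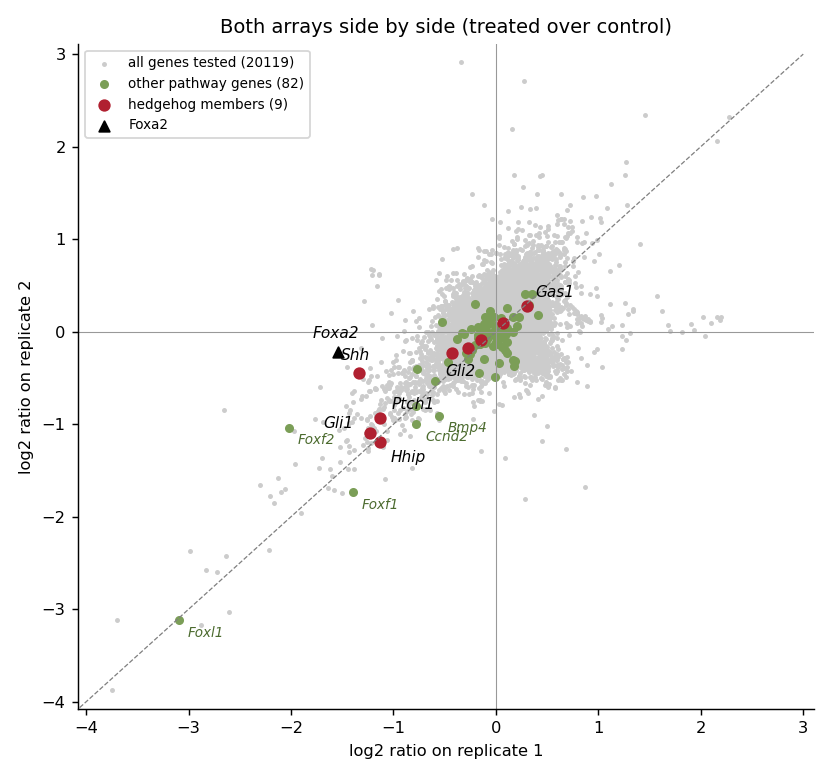
Log2 ratio of treated over control on replicate 1 (x axis) against replicate 2 (y axis) for 20119 genes (grey), 82 other pathway genes (green), the 9 members (red) and Foxa2 (triangle); the dashed line marks equal ratios. Ptch1, Hhip and Gli1 lie on the line near -1 on both axes, while Shh and Foxa2 lie left of it, lower on replicate 1 than on replicate 2.

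*Ptch1* encodes the main receptor and is itself a target. The brighter of its 2 probes (mm9, chr13:63610298-63610357, minus strand) read 1385 in the treated and 3026 in the control pool of replicate 1, and 1492 and 2849 in those of replicate 2. The treated pools read close to each other and both lay below both control pools. The mean log2 ratio was -1.03 ± 0.14 (SD, n = 2), a 2.04-fold lower level, with a 95% interval of -1.28 to -0.78 and an adjusted limma p of 0.0108. The other probe (chr13:63612879-63612938), 2729 bases nearer the start of the transcript, gave 288 and 496 on replicate 1 and 301 and 740 on replicate 2. Its ratios of -0.79 and -1.30 had almost the same mean, -1.04, but the opposite order of the arrays. In the fit over probes both *Ptch1* probes passed, with adjusted limma p-values of 0.0056 and 0.0133.

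*Hhip* encodes a membrane-bound decoy that takes up ligand. Its brighter probe (mm9, chr8:82494280-82494339, minus strand) read 1056 and 2320 in the treated and control pool of replicate 1, and 1131 and 2594 in those of replicate 2. The 2 arrays gave nearly the same ratio, -1.14 and -1.20, with a mean of -1.17 ± 0.04 (SD, n = 2), 2.24-fold lower, a 95% interval of -1.40 to -0.93 and an adjusted limma p of 0.00543. The second probe (chr8:82490729-82490788), 3551 bases further along the transcript and the same distance away on the genome, was also lower, at -1.31 and -1.43. Its intensities of 328 and 815 on replicate 1 and of 402 and 1082 on replicate 2 were above background in every pool. Both *Hhip* probes passed in the fit over probes, the second with an adjusted limma p of 0.00167.

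The 2 co-receptors did not pass the test. *Gas1* encodes a membrane-anchored co-receptor. Its brightest probe (mm9, chr13:60276399-60276458, minus strand) read 38761 and 31482 in the treated and control pool of replicate 1 and 42613 and 35114 in those of replicate 2, so that both treated pools lay above both control pools. The ratios were 0.30 and 0.28, with a mean of 0.29 ± 0.01 (SD, n = 2), a 95% interval of 0.06 to 0.52 and an adjusted limma p of 0.258. The other 2 *Gas1* probes, 869 and 1844 bases nearer the start of the transcript, gave 0.17 and -0.16, and 0.42 and -0.33, and so had no common direction on the 2 arrays. *Boc*, a co-receptor of the immunoglobulin superfamily, had 1 probe (chr16:44485665-44485724) with 4256 and 4058 on replicate 1 and 3990 and 3743 on replicate 2. Its mean of 0.08 had a 95% interval of -0.15 to 0.31.

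*Smo* encodes the transducer that all hedgehog ligands act through. Its brighter probe (mm9, chr6:29711225-29711284, plus strand) read 66152 and 73180 in the treated and control pool of replicate 1 and 62058 and 65868 in those of replicate 2. The highest treated level exceeded the lowest control level, and the mean of -0.12 ± 0.04 (SD, n = 2) had a 95% interval of -0.35 to 0.12 and an adjusted limma p of 0.789. The second probe, 306 bases away, gave -0.16 and -0.31. The interval of the brighter probe reached to 1.28-fold lower and 1.09-fold higher levels.

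**Figure D3:**
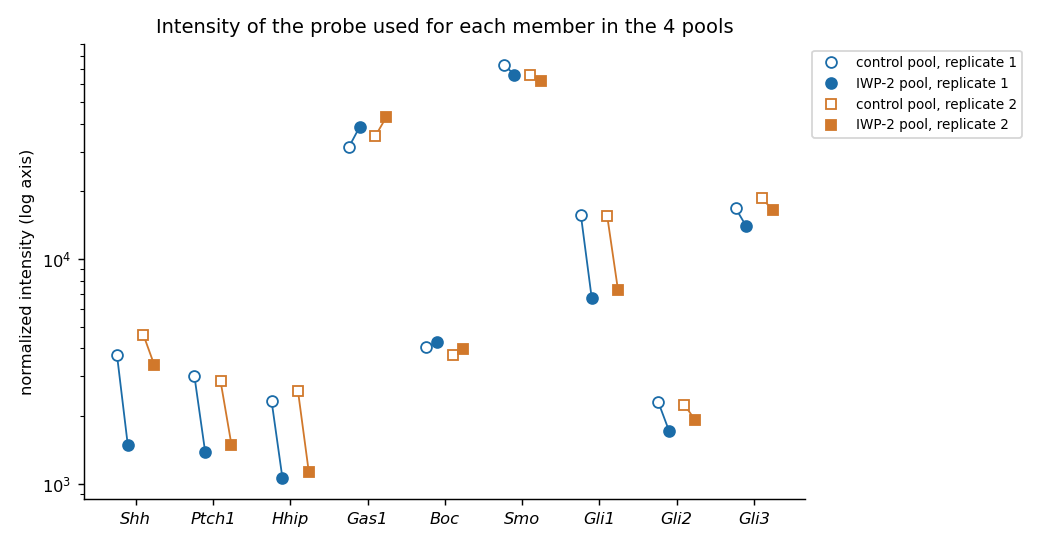
Normalized intensity (log axis) of the probe used for each of the 9 members in the control pool (open) and the IWP-2 pool (filled) of replicate 1 (blue circles) and replicate 2 (orange squares), with a line joining the pools of an array. The steep lines of Ptch1, Hhip and Gli1 are alike on both arrays, that of Shh is steep on replicate 1 only, and intensities are not comparable between genes.

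Among the transcription factors, *Gli1* fell and *Gli2* and *Gli3* did not pass the test. *Gli1* transcription depends on the pathway, and the GLI1 protein only activates. The probe used (mm9, chr10:126766967-126767026, minus strand) read 6696 in the treated and 15652 in the control pool of replicate 1, and 7271 and 15552 in those of replicate 2. The 2 control pools read close to each other, and both treated pools lay below either of them. The ratios of -1.22 and -1.10 had a mean of -1.16 ± 0.09 (SD, n = 2), 2.24-fold lower, a 95% interval of -1.40 to -0.92 and an adjusted limma p of 0.00584. The second *Gli1* probe (chr10:126775021-126775080) lay 2507 bases nearer the start of the transcript. It was not well above background, with 92.8 and 99.3 on replicate 1 and 95.1 and 104.5 on replicate 2, and was not tested.

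*Gli2*, the main activator in most tissues, read 1717 and 2310 in the treated and control pool of replicate 1 and 1910 and 2241 in those of replicate 2 (mm9, chr1:120731255-120731314, minus strand). Both treated pools were below both control pools, with ratios of -0.43 and -0.23, a mean of -0.33 ± 0.14 (SD, n = 2), a 95% interval of -0.58 to -0.08 and an adjusted limma p of 0.232. *Gli3*, the main source of the repressor form, read 13957 and 16828 on replicate 1 and 16488 and 18679 on replicate 2 (chr13:15821502-15821561, plus strand). Its mean of -0.22 ± 0.06 (SD, n = 2) had a 95% interval of -0.46 to 0.01 and an adjusted limma p of 0.411. The intervals of *Gli2* and *Gli3* did not reach the interval of *Gli1*. The difference between the genes was not tested.

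In all, 5 of the 14 member probes tested were lower at a false discovery rate of 0.05 over 26947 probes, where all probes gave 1.23% lower and 0.824% higher. These were both probes of *Ptch1* and of *Hhip* and the bright probe of *Gli1*. By the study's cut-offs for robust changes (intensity of 100 or more and fold change of 2 or more, on each array) *Gli1* and *Hhip* were lower, where 50 of 14566 genes of that intensity were lower, which is 0.343%, and 0.0755% were higher. *Ptch1* joined them at a fold change of 1.5. Its processed log2 ratios were -1.17 and -0.97, so that it fell just short of the cut-off on replicate 2 only. When the log2 ratios were centred on their median in place of loess, the means stayed at -1.06 for *Ptch1*, -1.19 for *Hhip* and -1.20 for *Gli1*, but none of the 3 genes passed the test (limma, adjusted p = 0.0967, adjusted p = 0.0753 and adjusted p = 0.0696). In the deposited table of rounded fold changes *Ptch1* and *Gli1* were lost (limma, adjusted p = 0.159 and adjusted p = 0.0762).

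The upstream sequences of *Ptch1*, *Hhip* and *Gli2* are shown because the first 2 genes fell and the third holds the only match to a GLI motif among the members. They are the 250 bases before the RefSeq start (build GRCm38.p6, each gene on the minus strand, written from 5′ to 3′ along the gene), with motif matches in capitals. RefSeq promoters were matched for 6 of the 9 members, namely *Ptch1*, *Hhip*, *Gas1*, *Smo*, *Gli2* and *Gli3*.
Ptch1, chr13:63565736-63565985: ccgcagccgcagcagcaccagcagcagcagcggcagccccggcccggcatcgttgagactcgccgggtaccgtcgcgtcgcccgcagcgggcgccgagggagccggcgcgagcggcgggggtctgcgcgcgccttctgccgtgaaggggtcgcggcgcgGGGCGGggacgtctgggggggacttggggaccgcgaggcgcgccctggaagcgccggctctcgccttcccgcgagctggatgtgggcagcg
Hhip, chr8:80058009-80058258: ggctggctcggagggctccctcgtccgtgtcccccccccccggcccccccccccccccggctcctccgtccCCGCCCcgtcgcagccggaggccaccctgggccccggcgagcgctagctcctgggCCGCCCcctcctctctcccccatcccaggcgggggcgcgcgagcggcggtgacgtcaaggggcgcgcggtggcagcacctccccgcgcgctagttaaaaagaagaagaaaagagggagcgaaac
Gli2, chr1:119053620-119053869: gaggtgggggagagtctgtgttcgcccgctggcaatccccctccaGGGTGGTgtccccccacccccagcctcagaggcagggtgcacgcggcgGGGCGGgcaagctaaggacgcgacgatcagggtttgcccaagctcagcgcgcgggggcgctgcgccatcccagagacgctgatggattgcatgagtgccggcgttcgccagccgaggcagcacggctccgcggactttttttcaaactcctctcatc

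Both strands of these windows were searched. The GLI site GACCACCCA was in 0 of the 6 windows and in 0.225% of 32851 windows of all genes. Its core ACCACCC, which the longer site contains, was in *Gli2* alone, 205 bases before the start on the opposite strand, and in 3.92% of all windows. The TCF/LEF site CTTTGAT, which the WNT effectors bind, was in 0 of 6 and in 3.21% of all windows. The GC box GGGCGG was in 5 of 6, all but *Smo*, and in 32.7% of all windows. It lay 91 bases before the start in *Ptch1*, at 179 and 124 bases in *Hhip* and at 157 bases in *Gli2*. These windows were rich in G and C, with 78.4% in *Ptch1*, 76.0% in *Hhip* and 67.2% in *Gli2* against a median of 52.4% over all windows. The matches describe the letters only.

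The rest of the pathway was followed through 84 other genes in lists ordered by role, of which 82 were tested. Of these, 6 fell (*Foxl1*, *Foxf1*, *Foxf2*, *Ccnd2*, *Adcy5* and *Bmp4*) and 0 rose, where all genes gave 1.15% lower and 0.611% higher. The median of the 82 genes was -0.06 against 0.00 for all genes. Of the 6, 5 are listed as targets and 1, *Adcy5*, as a membrane transducer.

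**Figure D4:**
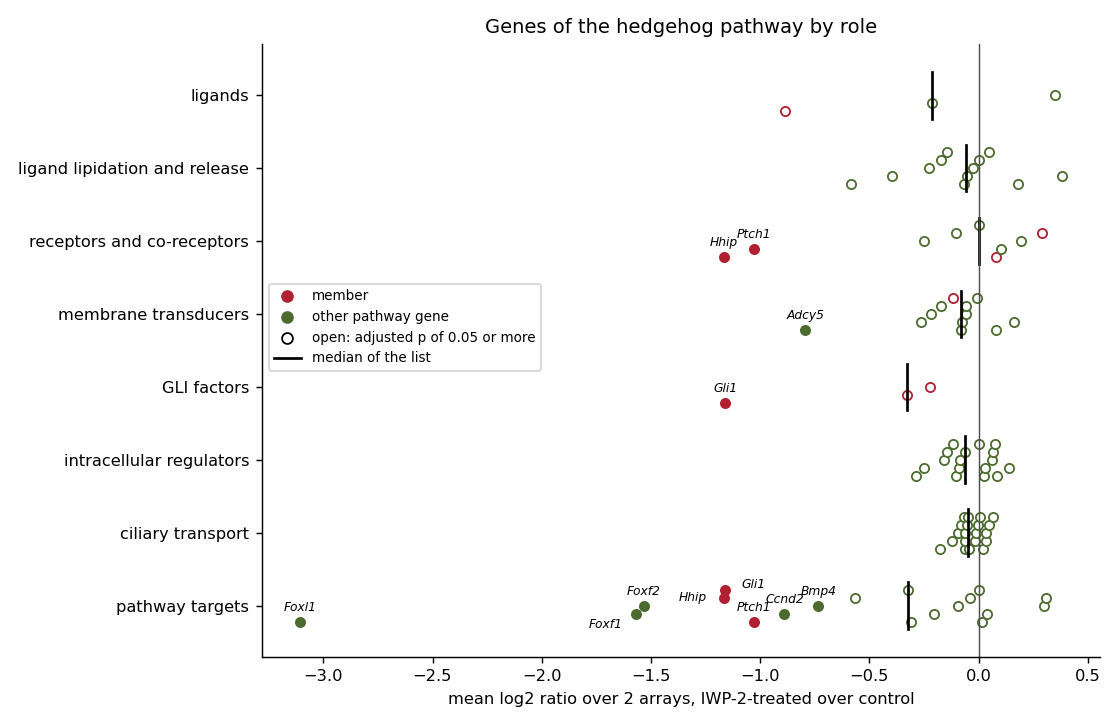
Mean log2 ratio of treated over control over 2 arrays (x axis) for each tested gene of 8 role lists (rows), with members in red, other pathway genes in green, filled where the adjusted limma p was under 0.05, and the list's median as a bar. Filled points stand in the lists of receptors, membrane transducers, GLI factors and targets, and genes in 2 lists are drawn in both.

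Of the 12 tested genes for lipidation and release of the ligand, 0 passed. *Hhat*, which attaches palmitate to SHH and belongs to the same enzyme family as PORCN, was at -0.16 and -0.13, a mean of -0.15 with a 95% interval of -0.38 to 0.09. The largest values in this list were -0.58 for *Gpc4*, a glypican (limma, adjusted p = 0.0803), -0.40 for *Scube2*, a secreted carrier of lipid-bearing ligand, and 0.38 for *Disp2*, a relative of the ligand exporter DISP1. *Hhatl* was not well above background in any pool. Of the 9 receptor genes 2 fell, both of them members, and the others included *Lrp2* at 0.19 and *Cdon*, the closest relative of *Boc*, at 0.10.

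Of the 12 membrane transducer genes, *Adcy5* fell. It encodes an adenylyl cyclase, an enzyme that makes the cAMP which holds the pathway back through protein kinase A. The probe used read 746 and 1283 in the treated and control pool of replicate 1 and 620.1 and 1084 in those of replicate 2. Its mean was -0.79 ± 0.02 (SD, n = 2) with an adjusted limma p of 0.018, and its other 2 probes gave means of -0.79 and -0.76. The closest to it in size were *Evc2* at -0.27 and *Evc* at -0.22, which encode partners of SMO at the base of the cilium.

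Between SMO and GLI no gene passed the test. Of the 17 intracellular regulators, 0 passed, with *Kif7*, a kinesin of the ciliary tip, at -0.29, *Sufu*, the main inhibitor of GLI proteins, at -0.01 and -0.49, and *Prkaca*, a catalytic subunit of protein kinase A, at -0.16. Of the 20 ciliary transport genes tested, 0 passed, and all lay between -0.18 for *Ift27* and 0.06 for *Bbs4*.

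Of the 19 target genes, 8 fell and 0 rose (1.15% and 0.611% of all genes did), and the median was -0.32. Besides *Hhip*, *Gli1* and *Ptch1* these were 3 forkhead genes of the mesenchyme, the growth factor gene *Bmp4* and the cyclin gene *Ccnd2*. *Foxl1* read 413 and 3526 in the treated and control pool of replicate 1 and 367 and 3191 in those of replicate 2, a mean of -3.11 ± 0.02 (SD, n = 2) with an adjusted limma p of 0.000212. *Foxf1* was at -1.57 and its second probe at -1.85. *Foxf2* had a mean of -1.53, with -2.02 on replicate 1 and -1.04 on replicate 2. *Bmp4* was at -0.56 and -0.91 (limma, adjusted p = 0.0416) and *Ccnd2* at a mean of -0.89 (limma, adjusted p = 0.0166). The call of *Bmp4* was lost in 5 of 9 alternative settings and those of *Foxf2* and *Ccnd2* in 4 of 9. The lists include genes that other pathways also control, WNT signalling among them for *Ccnd2*, and the list's name does not say which input a change follows.

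*Osr1*, a mesenchymal zinc finger gene, was at -0.60 and -0.53 with an adjusted limma p of 0.0503. Other listed targets had small or opposite values. *Bcl2*, a survival gene, was at -0.31 and *Snai2* at -0.32, the cyclin gene *Ccnd1* was at 0.04, and *Hand2* and *Nkx6-1*, listed from limb and neural tube, were at 0.31 and 0.30.

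**Figure D5:**
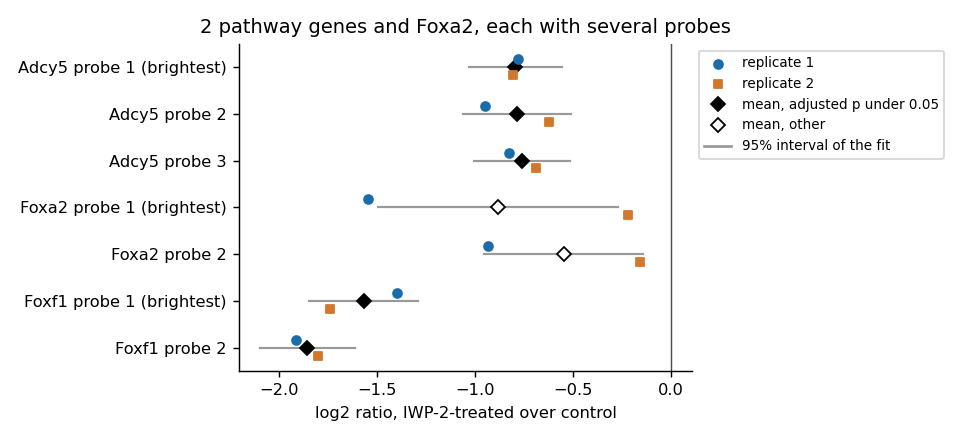
Log2 ratio of treated over control (x axis) for each probe above background of Adcy5, Foxf1 and Foxa2 on replicate 1 (circles) and replicate 2 (squares), with the mean (diamonds, filled where the adjusted limma p over all probes was under 0.05) and the 95% interval of the fit (grey lines). The probes of Adcy5 and of Foxf1 lie together on both arrays, and both Foxa2 probes are lower on replicate 1.

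The receiving tissue was measured beside these values. The 10 mesenchymal markers had a median of -0.07, and their summed level changed by -0.01 on replicate 1 and 0.17 on replicate 2. *Tbx18*, which defines the ureteric mesenchyme, fell by 1.03 (limma, adjusted p = 0.0126). Of markers of other cell types, all 10 endothelial ones were higher on both arrays (28.5% of all genes were), at summed levels of 0.46 and 0.69 on the log2 scale, and *Kdr* and *Cldn5* rose by 0.74 and 0.65. All 9 macrophage markers were higher on both arrays, at 0.31 and 0.53 in sum, and *Adgre1* rose by 0.92. Of the 9 markers of neural crest and neurons, 8 were higher on both arrays, at 0.45 and 0.38 in sum, and of 9 red blood cell markers 6 were, at 0.35 and 0.50 in sum. The 9 nephrogenic markers had a median of -0.02 and changed by 0.24 and -0.25 in sum. On both arrays 3 of them were higher and 2 were lower. Of this list *Meox1* alone passed the test and rose by 0.96. The part of these cell types in the lower levels of *Ptch1*, *Hhip* and *Gli1* was not tested.

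The genes closest to a member were those with the smallest Euclidean distance over the log2 ratios of the 2 arrays. They were *Foxe1*, *Lrrtm3* and the WNT target *Sp5* for *Hhip*, *Rnf152*, *Gpr165* and *Dclk2* for *Ptch1*, and *Gm1987*, *Snx22* and *Htr7* for *Gli1*, all at distances of 0.039 to 0.078. For *Shh* they were *Parp9*, *Pdzrn4* and *Pnliprp2*, at 0.080 to 0.118. *Gli2* was nearest to *Cacna1g*, the WNT antagonist gene *Dkk1* and *Snai2*, *Gli3* to *Ptgfrn*, *Gas1* to *Pirt*, *Smo* to *Nol12* and *Boc* to *Dscr3*. With 2 arrays this likeness rests on 2 values a gene.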

How the data were processed

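The authors deposited Agilent scanner files, made per the labels with Feature Extraction 10.7.3.1, which hold spot and local background intensity in 2 channels. They also deposited values per probe for the series, a score that is the signed fold change of treated over control to 1 decimal, used as an alternative only. In R 4.3.3 with limma 3.58.1 and data.table (version 1.17.8), mean intensities were background-corrected (normexp, offset 50) and log2 ratios loess-normalized within arrays (span 0.3). Outlier spots were dropped and the 4 spots of a probe averaged. A probe was kept if over 0.5 of its spots were well above background in 1 treatment on both arrays, and the brightest kept probe stood for its gene. Printed intensities followed loess and Aquantile scaling. Limma (lmFit, eBayes, 2-sided, Benjamini-Hochberg over all genes or probes, 1 residual degree of freedom a gene) tested the ratios at a false discovery rate of 0.05, and the steps were tested on simulated data. The study's filter used the deposited processed intensity, with the intensity cut-off applied to the brighter channel of each array.

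The members and lists were chosen with earlier results of these data known. Of the other lists, genes past the threshold and up to 3 of the largest changes a list were named, with 3 nearest genes a member, and others are marked as chosen later. Positions are those of the files (mm9). The exon a probe falls in was not analysed here. Values of some listed genes are not reported here.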

Additional observations from a re-analysis of the deposited data

How the results depend on the processing

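Over 9 alternatives in processing, the mean over both arrays kept its direction for the 9 members, the 6 other pathway genes and the 5 WNT targets that were called; the other named genes were not followed through them. The 3 called members were called in all but 2 of these: median centring called 0 of the 9 members (4 lower and 0 higher at an unadjusted limma p under 0.05), and the rounded series table called *Hhip* with *Gli3* and *Smo*, whose rounded ratios were identical on both arrays, in place of *Ptch1* and *Gli1*. The columns of that table had medians of 1, correlated with the scanner ratios at Pearson's r = 0.921 and 0.959 and ran in the same direction, and its intensity floor is not given in the sources used here. *Shh* was never called over genes (adjusted limma p from 0.0571 to 0.577) but its probe was called with an intensity-dependent prior, when 6 member probes passed in place of 5. The 355 genes called became 43 with median centring (36 lower and 7 higher, against 232 and 123), 119 without the filter on dim probes and 2360 in the series table. The 6 other pathway genes became 3 with processed signals, with median centring and without the filter, and 15 in the series table. *Bmp4* was at -0.00 on replicate 1 and -1.47 on replicate 2 with median centring. By the study's cut-offs 2 to 4 members passed when either array was left out, and *Ptch1* and *Shh* joined without replicate 2. With 1 array left no test was possible. No paired analysis was possible because treated and control were already paired within each array as 1 ratio and the arrays form 1 group. The planned model of single channels with dye as a term was not run and could not be fitted, since treatment and dye use up both ratios, and slide or scan blocks did not apply.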
